A study of Mus musculus with 11 samples.

Results

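Genes that copy DNA or prepare a cell to copy it were examined in mouse splenic dendritic cells with and without exposure to a B cell lymphoma. The list holds 49 genes, chosen by name for their part in the step from G1 into S phase, in DNA replication and in nucleotide supply. Of these, 47 were measured among the 22180 genes tested. The probesets of Rfc4 and Ccne2 name a further gene each, so these 2 genes were not analysed here. Each gene is represented by the probeset with the highest mean over all 11 arrays.

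The cells were sorted from C57BL/6 spleens as CD11c+ and MHC class II+, with a purity above 95%. There were 6 arrays of naive cells and 5 arrays of cells from mice given Eµ-Myc lymphoma cells by transfer, a B cell lymphoma that arises in mice carrying a Myc transgene; the transferred tumour made up 10 to 36% of splenic lymphocytes on average. The labels give no age and leave unsaid how many mice an array stands for, so that a p-value here reflects only how far these 11 samples vary, which may be technical. All values are log2 expression on 1-colour arrays, made by the authors with RMA, and a difference is exposed minus naive. In a sorted population, a larger share of cells in S phase and more transcript in each such cell cannot be told apart.

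Replication begins with licensing. The origin recognition complex, Cdc6 and Cdt1 load rings of Mcm2 to Mcm7 onto DNA, and geminin, the product of Gmnn, later blocks Cdt1 so that no origin fires again in the same cycle. Mcm10, Cdc45 and the GINS complex turn the ring into a running helicase, after which the polymerases, the clamp PCNA and its loader RFC copy both strands. Many of these genes are switched on together by E2F transcription factors late in G1. Conventional dendritic cells of the spleen descend from dividing precursors, and some still divide within the spleen.

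Itgax, which encodes the CD11c used in the sort, lay between 11.87 and 12.21 on all arrays. Array medians lay between 5.53 and 5.61. The 95th percentile of 1105 olfactory receptor genes, 5.60, served as a mark for dim genes, and of the 47 replication genes only Orc1 had a mean below it. Naive and exposed arrays alike fell into number sets, 1 to 3 against 4 to 6, for which no label gives a reason, and values within each set are given too. Among exposed arrays, number 1 was lowest and number 6 highest in the replication genes; the median difference was 0.27 without the first and 0.15 without the other.

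Replication genes leaned towards exposed cells by small amounts. Of the 47 measured genes, 46 had a positive difference, where 53.5% of all genes did. Their median difference was 0.21, or 1.16-fold, with the middle of the list between 0.14 and 0.24, against a median of 0.01 over all genes tested. The test was passed by 4 genes, all of them higher: the helicase activator Mcm10, the ribonucleotide reductase subunit Rrm2, thymidine kinase Tk1 and the smallest subunit of replication protein A, Rpa3. At the same threshold, an adjusted p under 0.05 by limma over all genes, 0.879% of all genes were higher and 0.546% lower, or 195 and 121 genes; 0 replication genes were lower. A shift of each array to a common 75th percentile turned that split to 166 higher and 215 lower and kept the same 4 replication genes. An unadjusted p under 0.05 with a positive difference was reached by 24 of the 47, and by 7.17% of all genes; 0 of the 47 and 5.05% of all genes reached it with a negative difference.

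The heat map of the 47 genes shows the same direction in most rows and an uneven strength across the exposed arrays. The lowest exposed value exceeded the highest naive value for 6 genes, Orc6, Mcm10, Cdc45, Rpa3, Rrm2 and Tk1, and for 1.42% of all genes. For another 9 genes 4 exposed arrays did, which brings the count with at least 4 to 15 of 47, against 4.5% of all genes. The spread was wider in exposed cells for 38 of the 47 genes, with a median SD of 0.18 in exposed and 0.12 in naive cells; over all genes it was wider in exposed cells for 52.3%.

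**Figure D1:**
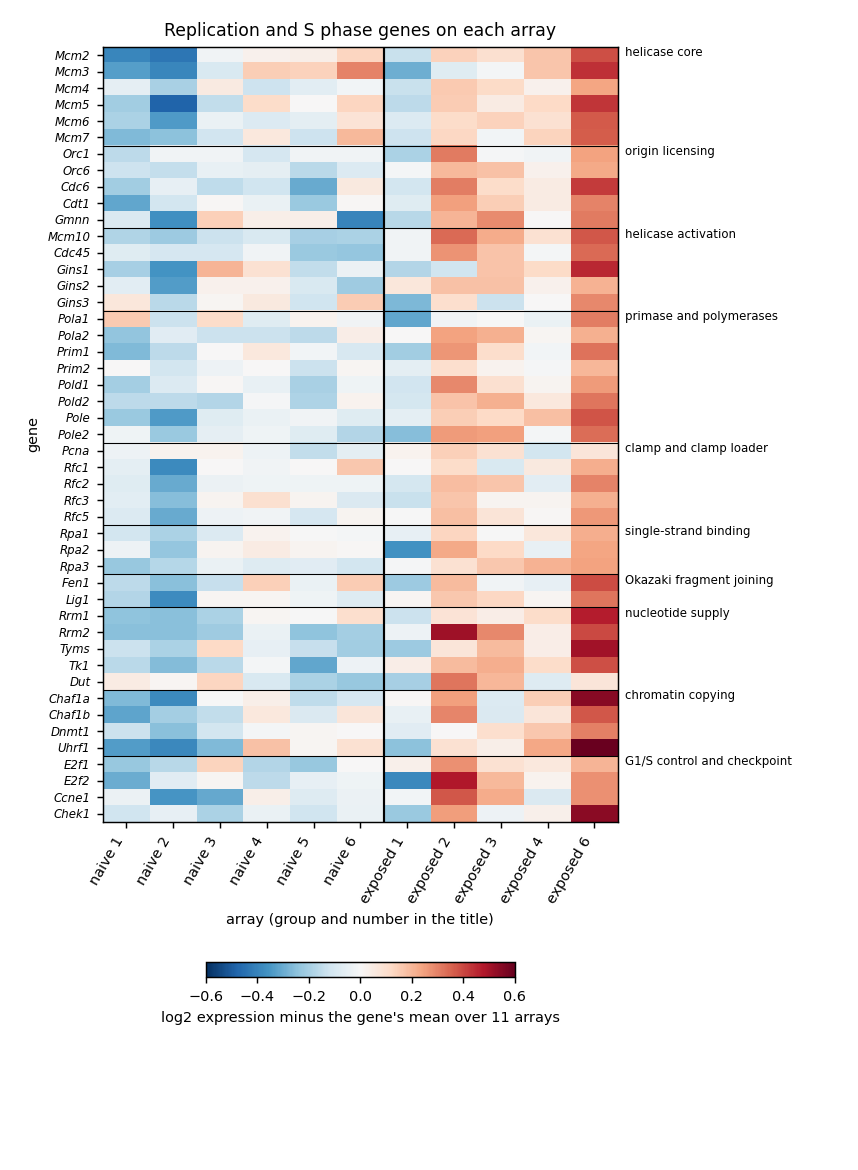
Each row is a replication or S phase gene and each column an array, 6 naive on the left and 5 exposed on the right; colour is log2 expression minus that gene's mean over the 11 arrays, with red higher and blue lower, and rows are grouped by role. Exposed array 6 is the reddest column, exposed array 1 resembles the naive arrays, and naive array 2 is the bluest.

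The largest differences in the list were those of Rrm2, Mcm10 and Tk1, single genes of nucleotide supply and helicase activation. The median was 0.24 for helicase activation and 0.21 for nucleotide supply, against 0.21 for the list. Mcm10 helps Cdc45 and GINS to start the helicase. It was measured at 7.73 (lowest), 7.77 (median) and 7.86 (highest) in naive cells, and at 7.93, 8.29, 8.17, 8.04 and 8.32 in exposed arrays 1, 2, 3, 4 and 6. The groups did not overlap, and the lowest exposed value belonged to array 1. Mcm10 rose 1.29-fold, by 0.37 ± 0.07 (SE; adjusted p = 0.0233), from 7.78 ± 0.05 (SD, n = 6) to 8.15 ± 0.17 (SD, n = 5).

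Rrm2 encodes the subunit of ribonucleotide reductase whose amount rises in S phase, and so limits the making of deoxynucleotides. In naive cells it ran from 8.99 through a median of 9.01 to 9.20, and the exposed arrays gave 9.21, 9.75, 9.53, 9.28 and 9.64 in the same order. The gap between the groups was narrow, since the highest naive array, number 4, reached 9.20 and exposed array 1 stood at 9.21. Rrm2 had the largest difference of the 47, 0.44 ± 0.09 (SE; adjusted p = 0.0304), or 1.36-fold. A dim further probeset of Rrm2, at a mean of 4.23, gave 0.16 ± 0.12 (SE), with an adjusted p of 0.678 when every probeset was tested.

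Tk1, the cytosolic thymidine kinase that salvages thymidine for DNA synthesis, lay between 8.57 and 8.87 in naive cells with a median of 8.72. Exposed arrays 1, 2, 3, 4 and 6 gave 8.92, 9.07, 9.10, 8.99 and 9.27, again without overlap. It rose 1.27-fold, by 0.35 ± 0.07 (SE; adjusted p = 0.0347).

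Rpa3 encodes the smallest of the 3 subunits that coat single-stranded DNA. Naive values ran from 8.41 through 8.54 to 8.60 and exposed values were 8.63, 8.73, 8.80, 8.85 and 8.88, so the groups lay close without overlapping. The rise was 1.19-fold, 0.25 ± 0.06 (SE; adjusted p = 0.0468). Its other probeset, at a mean of 7.61, gave 0.14 ± 0.16 (SE), with an adjusted p of 0.815 when every probeset was tested. The other subunits did not pass, Rpa1 at 0.14 (adjusted p = 0.368) and Rpa2 at 0.06 (adjusted p = 0.871). With a gene's probesets averaged, 2 of the 47 genes passed, Mcm10 and Tk1, against 0.879% of all genes as higher; Rpa3 then gave 0.20 (adjusted p = 0.431) and Rrm2 0.30 (adjusted p = 0.160), where the 4 genes' adjusted p otherwise ran from 0.0146 to 0.530 over settings other than leaving out an array. After median centring 2 passed, Mcm10 and Rrm2, against 0.807%.

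**Figure D2:**
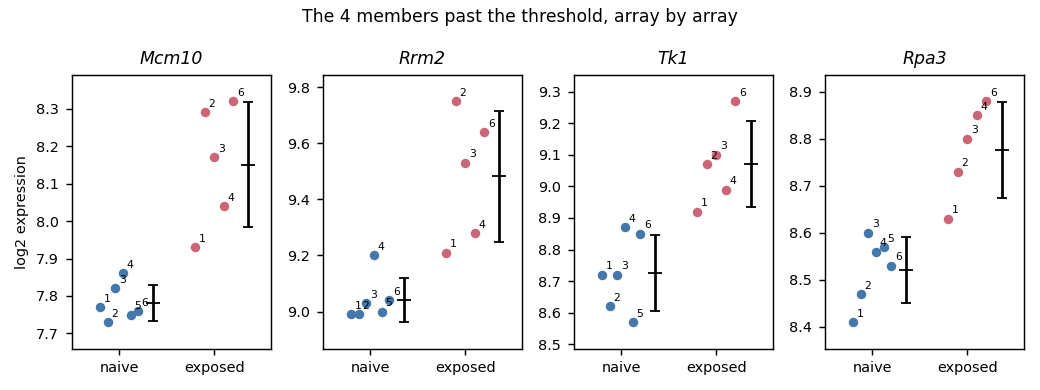
Log2 expression of Mcm10, Rrm2, Tk1 and Rpa3 on each array, with the array's number beside its point, naive in blue and exposed in red; bars are the mean ± SD of each group, and the vertical scales differ between panels. In all 4 panels exposed array 1 is the lowest exposed point and still lies above every naive point.

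These 4 calls depended on which arrays were included. Leaving out exposed array 2, exposed array 3, naive array 1, naive array 2, naive array 5 or naive array 6 left 0 of the 47 genes past the threshold, against 0.307%, 0.582%, 0.451%, 0.5%, 0.415% and 0.442% of all genes as higher. Mcm10 alone remained without exposed array 6 or naive array 3 (1.05% and 0.46% of all genes). Mcm10 and Rrm2 passed without exposed array 4 (0.672%), and Mcm10, Rrm2 and Tk1 passed without naive array 4 (0.627%). Without exposed array 1 there were 6 (0.996%), with Orc6 and the polymerase delta subunit Pold2 added to the 4. The differences themselves moved little: from 0.33 to 0.42 for Mcm10 (adjusted p from 0.00920 to 0.0695), from 0.37 to 0.51 for Rrm2 (0.0133 to 0.0788), from 0.29 to 0.38 for Tk1 (0.0267 to 0.0919) and from 0.23 to 0.29 for Rpa3 (0.0251 to 0.108). Of the 47 genes, 44 kept a positive difference in each of the 11 fits with an array left out.

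The number sets have no label and showed in these same values. With the number set as a block, 6 replication genes passed and 1.65% of all genes did as higher. These were the 4 named above together with Pole, the catalytic subunit of polymerase epsilon (0.29, adjusted p = 0.0242), and the maintenance DNA methyltransferase Dnmt1 (0.20, adjusted p = 0.0398). The 47 genes had a median difference of 0.22 in the first number set and 0.21 in the other. A positive difference in each number set was found for 45 of them, and for 31.8% of all genes. Tested alone, neither number set, with 3 arrays against 3 and 3 against 2, put any replication gene past the threshold by limma, against 0.0316% and 0.00902% of all genes as higher; 21 and 20 of the 47 were higher there at an unadjusted p under 0.05, against 6.63% and 4.44% of all genes.

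**Figure D3:**
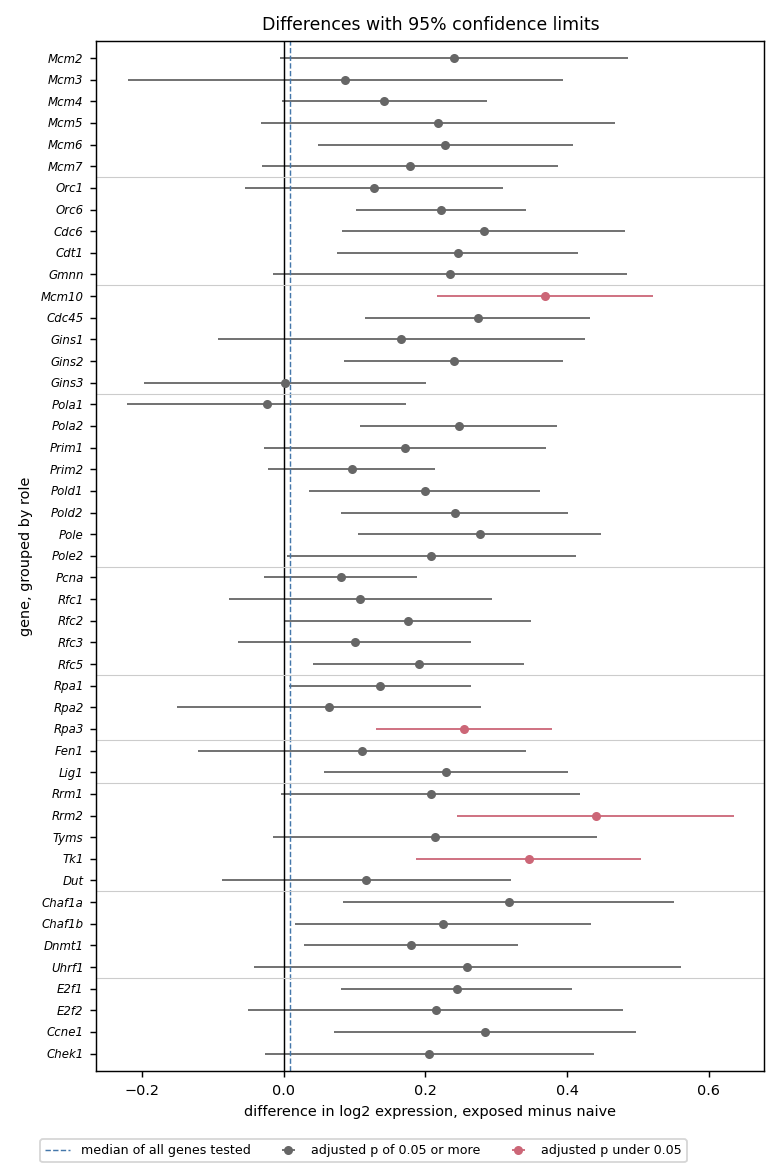
Difference in log2 expression, exposed minus naive, for the 47 replication and S phase genes with 95% confidence limits from limma; red points passed an adjusted p of 0.05, the solid line is 0 and the dashed line is the median of all genes tested. The 4 red points are Mcm10, Rpa3, Rrm2 and Tk1, and the limits of 24 genes lie wholly above 0.

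The remaining genes are described by role. Beside the counts in each role, 0.879% of all genes passed as higher and 7.17% were higher at an unadjusted p under 0.05. Genes of origin licensing had a median difference of 0.23, with 5 of 5 positive. Of them 0 passed the threshold by limma and 3 had an unadjusted p under 0.05. Cdc6, the loader that brings the Mcm ring to the origin, ran from 7.85 through 8.02 to 8.21 in naive cells and gave 8.04, 8.46, 8.26, 8.20 and 8.57 in the exposed arrays. The groups overlapped, with exposed arrays 1 and 4 inside the naive range, and the difference of 0.28 ± 0.09 (SE) did not pass (adjusted p = 0.192). Orc6, a subunit of the origin recognition complex, came close to the threshold, at 8.37 to 8.49 in naive and 8.52, 8.73, 8.71, 8.56 and 8.76 in exposed cells (0.22 ± 0.06, adjusted p = 0.0737). Cdt1 and its inhibitor Gmnn differed by like amounts, 0.25 (adjusted p = 0.180) and 0.23 (adjusted p = 0.450).

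Helicase activation was the most uneven group. Beside Mcm10, the helicase subunit Cdc45 gave 7.66 to 7.87 in naive and 7.87, 8.16, 8.06, 7.88 and 8.23 in exposed cells (0.27 ± 0.07, adjusted p = 0.0977), and the GINS subunit Gins2 differed by 0.24 (adjusted p = 0.142). Gins3, which belongs to the same 4-subunit complex, had a difference of 0.001 ± 0.09 (SE; 95% limits -0.20 to 0.20). Its naive values ran from 8.29 through 8.48 to 8.60 and its exposed values were 8.18, 8.55, 8.32, 8.45 and 8.74, so that exposed arrays held both the lowest and the highest value of the 11. The sign of so small a difference turned under some settings, for example to -0.03 after a shift to a common 75th percentile.

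The 6 genes of the Mcm ring all had positive differences, between 0.09 for Mcm3 and 0.24 for Mcm2, with a median of 0.20, 0 past the threshold by limma and 1, Mcm6, with an unadjusted p under 0.05. Mcm2 ran from 9.09 through 9.53 to 9.65 in naive cells, and exposed arrays gave 9.39, 9.66, 9.62, 9.69 and 9.91 (0.24 ± 0.11 SE, adjusted p = 0.423). The naive arrays were themselves spread widely here, since Mcm2 was at 9.13 and 9.09 on naive arrays 1 and 2 and at 9.50 or more on the other 4. Mcm6 differed by 0.23 ± 0.08 with an adjusted p of 0.255.

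Among the primase and polymerase genes 7 of 8 had positive differences, with a median of 0.20, 0 past the threshold by limma and 5 with an unadjusted p under 0.05. Pole ran from 8.15 through 8.42 to 8.47 in naive cells and gave 8.43, 8.64, 8.61, 8.67 and 8.87 in exposed cells, with all but exposed array 1 above the naive range (0.28 ± 0.08 SE, adjusted p = 0.125). Pola2, the regulatory subunit of polymerase alpha, differed by 0.25 ± 0.06 (adjusted p = 0.0865), while Pola1, the catalytic subunit of the same enzyme, was the only one of the 47 with a negative difference, -0.02 ± 0.09 (95% limits -0.22 to 0.17). Pola1 ran from 8.43 to 8.72 in naive cells and gave 8.25, 8.54, 8.56, 8.52 and 8.87 in exposed cells, with exposed array 1 the lowest of all 11 arrays and exposed array 6 the highest. The first number set put Pola1 at -0.16 and the other at 0.16.

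The clamp and its loader had the smallest median, 0.11, with 5 of 5 measured genes positive, 0 past the threshold by limma and 2 with an unadjusted p under 0.05. Pcna, the sliding clamp that holds polymerases on DNA, lay between 11.17 and 11.34 in naive cells and at 11.34, 11.46, 11.41, 11.21 and 11.39 in exposed cells, a difference of 0.08 ± 0.05 (95% limits -0.03 to 0.19; adjusted p = 0.588). Rfc5, a subunit of the loader, ran from 8.02 through 8.27 to 8.34 in naive cells and gave 8.32, 8.50, 8.40, 8.33 and 8.58 in exposed cells (0.19 ± 0.07 SE, adjusted p = 0.250). Naive array 2 was well below the other naive arrays for Rfc2 and Rfc5. Of the enzymes that finish Okazaki fragments, the ligase Lig1 gave 7.87 to 8.26 in naive and 8.26, 8.41, 8.37, 8.26 and 8.57 in exposed cells (0.23 ± 0.08, adjusted p = 0.226), and the flap nuclease Fen1 differed by 0.11 (adjusted p = 0.765).

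In the nucleotide group all 5 genes were positive. The large reductase subunit Rrm1 differed by 0.21 (adjusted p = 0.419), less than its partner Rrm2, though the difference between the 2 genes was not tested. Thymidylate synthase, Tyms, differed by 0.21 (adjusted p = 0.455), with 0.08 within arrays 1 to 3 and 0.40 within arrays 4 to 6. The dUTP hydrolase gene Dut differed by 0.12 (adjusted p = 0.705), and its dimmer probeset gave -0.07 (SE 0.09).

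All 4 genes that restore chromatin behind the fork were positive, with a median of 0.24. Chaf1a, the large subunit of the chromatin assembly factor that deposits new histones, ran from 7.14 through 7.39 to 7.56 in naive cells and gave 7.53, 7.77, 7.44, 7.67 and 8.07 in exposed cells. Exposed arrays 1 and 3 fell within the naive range, and the difference of 0.32 ± 0.11 (SE) did not pass (adjusted p = 0.214). Uhrf1, which guides Dnmt1 to hemimethylated DNA, differed by 0.26 ± 0.14 (adjusted p = 0.506), with 8.78 to 9.34 in naive and 8.92, 9.26, 9.20, 9.40 and 9.76 in exposed cells.

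Among the control genes, the 4 measured ones were positive with a median of 0.23, 0 past the threshold by limma and 2 with an unadjusted p under 0.05. Cyclin E1, Ccne1, which drives cells into S phase with Cdk2, ran from 6.86 through 7.16 to 7.25 in naive cells and gave 7.20, 7.59, 7.44, 7.13 and 7.49 in exposed cells (0.28 ± 0.10 SE, adjusted p = 0.223). The activator E2f1 differed by 0.24 ± 0.08 (adjusted p = 0.158), E2f2 by 0.21 ± 0.12 (adjusted p = 0.538) and the checkpoint kinase Chek1 by 0.21 ± 0.11 (adjusted p = 0.489).

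Promoter sequences were set beside these differences because E2F binding is the shared feature these genes are known for. Windows from 250 bases before to 50 bases after the listed start site, from RefSeq on GRCm38.p6, were found for 40 of the 47 genes. The E2F search used the letters TTTCCCGC, TTTCGCGC, TTTGCCGC and TTTGGCGC on both strands. A match was present for 16 of the 40 genes, or 40.0%, against 3.26% of the 16990 genes tested that have a window and 2.26% of all 32851 windows. The mitotic element called CHR, searched as TTTGAA on both strands, was present for 17.5% of the replication genes and 17.8% of the genes tested, and the letters CCAAT, also on both strands, for 62.5% and 41.6%. No motif contains another, though neighbouring matches can share bases at their ends.

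Genes with and without an E2F match had close medians, which were not tested against each other. The 16 genes with a match had a median difference of 0.20 (range -0.02 to 0.28), and the 24 without had 0.22 (range 0.06 to 0.44). All 4 genes past the threshold were among those without a match in the window, and both genes with the smallest difference, Gins3 and Pola1, had 1 match each. The 250 bases before the start site are shown for these 6 genes, to let the 4 rises be read against the 2 genes without one, with E2F and CCAAT matches in capitals. They lie at chr2:5012792-5013041 (minus strand, Mcm10), chr12:24708004-24708253 (plus, Rrm2), chr11:117826015-117826264 (minus, Tk1), chr6:8259142-8259391 (minus, Rpa3), chr8:95633309-95633558 (plus, Gins3) and chrX:93632156-93632405 (minus, Pola1), each written 5′ to 3′ on the gene's strand.
Mcm10: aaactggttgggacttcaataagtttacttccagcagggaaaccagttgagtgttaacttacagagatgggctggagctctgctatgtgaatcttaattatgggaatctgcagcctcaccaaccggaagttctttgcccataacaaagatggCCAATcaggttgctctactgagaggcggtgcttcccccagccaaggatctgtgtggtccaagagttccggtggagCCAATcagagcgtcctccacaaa
Rrm2: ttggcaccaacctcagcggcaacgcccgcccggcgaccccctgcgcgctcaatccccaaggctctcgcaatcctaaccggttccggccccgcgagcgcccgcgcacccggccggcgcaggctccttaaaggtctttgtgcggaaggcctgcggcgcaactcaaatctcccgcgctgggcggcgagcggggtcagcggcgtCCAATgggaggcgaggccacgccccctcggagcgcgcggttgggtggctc
Tk1: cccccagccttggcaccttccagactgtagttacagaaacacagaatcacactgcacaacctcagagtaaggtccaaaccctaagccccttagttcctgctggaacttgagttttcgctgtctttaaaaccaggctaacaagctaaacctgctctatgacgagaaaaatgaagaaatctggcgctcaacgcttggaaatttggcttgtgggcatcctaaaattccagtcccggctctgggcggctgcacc
Rpa3: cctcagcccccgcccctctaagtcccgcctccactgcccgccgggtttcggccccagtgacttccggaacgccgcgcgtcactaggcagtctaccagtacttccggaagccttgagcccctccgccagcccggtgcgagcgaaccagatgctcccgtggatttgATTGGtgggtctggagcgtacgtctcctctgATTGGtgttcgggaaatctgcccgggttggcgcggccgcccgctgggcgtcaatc
Gins3: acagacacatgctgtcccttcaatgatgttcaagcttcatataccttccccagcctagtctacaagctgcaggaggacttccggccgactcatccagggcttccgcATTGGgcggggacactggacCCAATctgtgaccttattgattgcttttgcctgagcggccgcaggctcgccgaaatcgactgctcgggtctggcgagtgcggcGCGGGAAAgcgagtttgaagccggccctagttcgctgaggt
Pola1: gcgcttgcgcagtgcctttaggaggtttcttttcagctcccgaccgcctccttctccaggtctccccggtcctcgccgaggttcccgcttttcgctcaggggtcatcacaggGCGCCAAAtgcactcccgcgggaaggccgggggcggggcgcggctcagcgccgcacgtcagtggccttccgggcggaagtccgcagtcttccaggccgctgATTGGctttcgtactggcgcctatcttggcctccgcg
Mcm10 and Rpa3 each show 2 CCAAT matches and Rrm2 shows 1, while Tk1 shows none of the motifs in these letters. In Gins3 the E2F match spans -41 to -34 relative to the start site, and in Pola1 -138 to -131. A match is a description of the letters and not of a bound site, and a missing match says nothing about the factor.

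Exposed arrays 1 and 6 were the extremes of their group for most replication genes, while the highest naive array varied from gene to gene. The mean log2 level of the 47 genes was 8.41, 8.34, 8.51, 8.55, 8.47 and 8.54 on naive arrays 1 to 6 and 8.45, 8.75, 8.66, 8.61 and 8.88 on exposed arrays 1, 2, 3, 4 and 6. All exposed arrays but number 1 lay above the naive range, and exposed array 1 lay below 4 of the naive arrays. Exposed array 6 was the highest exposed array for 38 of the 47 genes and exposed array 2 for the other 9, while exposed array 1 was the lowest for 41. Among naive arrays, number 2 was the lowest for 26 genes, and the highest was number 6 for 15 genes, number 3 for 14 and number 4 for 13.

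Markers of red pulp macrophages, the splenic cells that clear old red cells and can carry CD11c, also differed between arrays. Their 9 markers had 8 positive differences with a median of 0.71, 0 past the threshold by limma and 6 with an unadjusted p under 0.05, and all 9 were above the mark for dim genes. Their mean level was 9.05, 9.52, 8.27, 8.86, 8.98 and 8.69 on naive arrays 1 to 6 and 10.97, 10.05, 9.24, 9.06 and 9.01 on exposed arrays 1, 2, 3, 4 and 6. Exposed array 1 therefore had the highest macrophage level and the lowest replication level of the exposed arrays, and exposed array 6 had the reverse. Naive array 2 had the highest macrophage and lowest replication level of the naive arrays. Exposed arrays 2, 3 and 4, in contrast, fell in that same order in each list. Naive array 3, lowest in macrophage level, was not the highest naive array in replication level. The part of these cells in the replication result was not tested.

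B cell markers bear on lymphoma cells that could have passed the sort. Of 10 listed, 9 were measured, all above the mark for dim genes; 5 had positive and 4 negative differences, with a median of 0.01. Cd22, an inhibitory receptor of B cells, was lower by 0.54 (adjusted p = 0.0238). Its naive mean of 10.20 was the highest of the 9, above 8.63 for Cd79b and 7.66 for Cd79a. Which cells the Cd22 signal came from was not tested. Cd79a and Cd79b, the signalling chains of the B cell receptor, did not pass, at 0.36 (adjusted p = 0.452) and 0.29 (adjusted p = 0.115). At an unadjusted p under 0.05 by limma, 2 were higher and 3 lower, against 7.17% and 5.05% of all genes. Higher were Cd79b and Pax5 (0.23, adjusted p = 0.344). Lower were Cd22, Blk (-0.35, adjusted p = 0.0542) and Cr2 (-0.34, adjusted p = 0.0748). The mean level lay between 7.34 and 7.55 in naive and between 7.18 and 7.50 in exposed cells, and exposed array 6, highest in replication genes, stood at 7.32. The part of these cells was not tested.

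For T cells, 7 of 8 markers were measured, with mean levels between 5.50 and 5.66 in naive and between 5.45 and 5.64 in exposed cells; 6 of the 7 had means below the mark for dim genes. None passed by limma, while 3 were higher and 1 lower at an unadjusted p under 0.05, against 7.17% and 5.05% of all genes. Of the 7, 3 had positive and 4 negative differences, with a median of -0.07. The T cell receptor chains Cd3e and Cd3g, below that mark, gave 0.25 (adjusted p = 0.256) and 0.34 (adjusted p = 0.169). Cd28, also below it, gave 0.19 (adjusted p = 0.377), and the chain Cd3d gave -0.07 (adjusted p = 0.748). Cd5, the only one of the 7 above the mark, gave -0.28 (adjusted p = 0.187). Its naive mean was 8.73, where that of Cd3e was 5.47, and which cells the Cd5 signal came from was not tested. Of 6 NK cell markers, 3 had positive differences and 2 had means above that mark, Ncr1 and Prf1, with mean levels of the list between 4.85 and 5.05 in naive and between 4.96 and 5.25 in exposed cells. Ncr1, an activating receptor of NK cells, was higher by 0.46 (adjusted p = 0.0289), at 5.46 to 6.06 in naive and 6.18, 6.21, 6.18, 6.01 and 6.31 in exposed cells, and passed in 3 of the 11 fits with an array left out. Prf1, which encodes perforin, gave 0.28 (adjusted p = 0.136). Of the 6, Ncr1 alone passed, against 0.879% of all genes as higher. Below the mark, Klrb1c gave 0.29 (adjusted p = 0.252), while Gzma, Gzmb and Eomes gave -0.07, -0.07 and -0.09. The part of these cells was not tested.

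Markers of dendritic cell subsets differed too. Of 6 markers of the sorted population, 0 passed by limma, 1 was lower at an unadjusted p under 0.05 (Itgax, at -0.14) and 5 had negative differences. Over all genes, 5.05% were lower at that unadjusted p. Among 6 type 2 dendritic cell markers, 3 had positive and 3 negative differences. Of these, 2 passed as lower, against 0.546% of all genes. They were the lectin receptor Cd209a, by 1.02 (adjusted p = 0.00345), and Clec4a4, by 0.43 (adjusted p = 0.0250). Clec10a, with a mean below the mark for dim genes, was higher at an unadjusted p under 0.05 by limma (0.27, adjusted p = 0.105). Cd209a gave 11.08 to 11.43 in naive and 10.37, 10.53, 9.76, 9.97 and 10.50 in exposed cells. Clec4a4 gave 10.87 to 11.08 in naive and 10.24, 10.58, 10.57, 10.45 and 10.83 in exposed cells. Neither gene's groups overlapped, and 194 of all 22180 genes had every exposed array below every naive array. Cd209a passed in 11 of the 11 fits with an array left out and Clec4a4 in 4. Of 5 measured type 1 markers 0 passed by limma, and 1, Irf8, was higher at an unadjusted p under 0.05, where 7.17% of all genes were. The part of the subsets in the replication result was not tested.

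**Figure D4:**
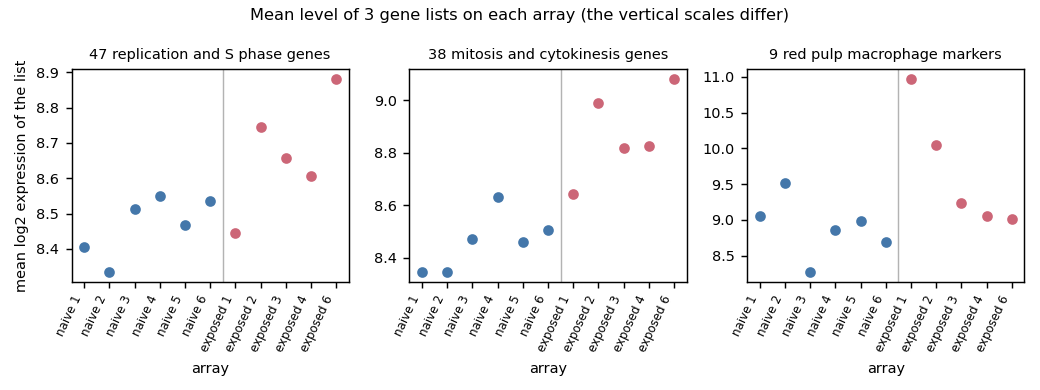
Mean log2 expression on each array of the 47 replication and S phase genes, of 38 mitosis and cytokinesis genes and of 9 red pulp macrophage markers, naive in blue and exposed in red. Exposed array 1 lies among the naive arrays in the left panel (8.45), just above them in the middle panel (8.64) and above all other arrays in the right panel (10.97).

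The number sets also separated some of these genes. No label gives this split, and the comparison was added after values had been seen, so its adjusted p-values are descriptive. By limma with group in the model, Mcm3, Mcm5, Rrm1, Dnmt1 and Uhrf1 were higher in arrays 4 to 6 than in arrays 1 to 3, and 0 of the 47 were lower; among all genes 2.64% were higher and 0.658% lower. Mcm3 differed by 0.45 (adjusted p = 0.0107) and Uhrf1 by 0.44 (adjusted p = 0.0127) between the number sets, more than either did between exposed and naive cells. For 11 of the 47 genes, naive arrays 4 to 6 all lay above naive arrays 1 to 3, as they did for 10.4% of all genes. For Mcm10, Rrm2, Tk1 and Rpa3 the differences between number sets were 0.03, 0.03, 0.09 and 0.10, and none of these passed.

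Further genes of the same steps were examined from a list of 87, of which 84 were measured. Of these, 67 had positive differences, where 53.5% of all genes did, and the median was 0.12. At the adjusted threshold 4 were higher and 0 lower, against 0.879% and 0.546% of all genes. An unadjusted p under 0.05 by limma was reached by 30 as higher and 2 as lower, against 7.17% and 5.05%. The 4 were the treslin gene Ticrr, which recruits Cdc45 to origins, the kinase gene Wee1, which holds back Cdk1, cyclin A2, Ccna2, and the Cdk4 and Cdk6 inhibitor p15, Cdkn2b. Ticrr rose by 0.35 ± 0.06 (SE; adjusted p = 0.0162), with 7.65 to 7.83 in naive cells and 7.91, 8.17, 8.03, 7.98 and 8.18 in exposed cells. Wee1 rose by 0.38 ± 0.07 (adjusted p = 0.0194), and Ccna2 by 0.41 ± 0.08 (adjusted p = 0.0252).

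Cdkn2b had the smallest adjusted p of these genes. It ran from 7.14 through 7.26 to 7.34 in naive cells and gave 7.68, 7.67, 7.69, 7.68 and 7.67 in exposed cells, a rise of 0.42 ± 0.05 (SE; adjusted p = 0.00261). Exposed arrays 1 and 6, which lay farthest apart for the replication genes, differed by little here. Cdkn2b passed in all 11 fits with an array left out, at an adjusted p from 0.00242 to 0.0116. Ticrr and Wee1 passed in 10 of them, failing without exposed array 2 (0.32, adjusted p = 0.0511, and 0.36, adjusted p = 0.0631). Ccna2 passed in 4 (adjusted p from 0.0143 to 0.0681) and failed without exposed array 2 or 3 or naive array 1, 2, 3, 5 or 6. The count of 4 was 1 without exposed array 2 (0.307% of all genes higher) and 7 without exposed array 1 (0.996%).

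The cyclins and kinases of G1 gave mixed values. Ccnd2, the D cyclin with the largest difference, gave 9.19 to 9.45 in naive and 9.94, 10.16, 9.51, 9.48 and 9.50 in exposed cells, high on exposed arrays 1 and 2 (0.42 ± 0.12, adjusted p = 0.102), with 0.65 within arrays 1 to 3 and 0.12 within arrays 4 to 6. Ccnd1 and Ccnd3 differed by -0.08 (adjusted p = 0.674) and 0.14 (adjusted p = 0.654). Cdk2, Cdk4 and Cdk6 differed by 0.13 (adjusted p = 0.508), 0.11 (adjusted p = 0.642) and 0.40 (adjusted p = 0.239). The inhibitors Cdkn1a, Cdkn1b and Cdkn2c differed by -0.001 (95% limits -0.38 to 0.37), -0.002 (95% limits -0.16 to 0.16) and 0.20 (adjusted p = 0.464). Among E2F genes and their partners 8 of 8 were positive with a median of 0.18, and the 7 genes of origin recognition and licensing outside the main list had a median of 0.01, with 4 positive.

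Genes of mitosis and cytokinesis act after S phase and are the nearest set for comparison. Of 38 measured, 37 were positive, and the median was 0.45 against 0.21 for replication. At the adjusted threshold 17 were higher and 0 lower, against 0.879% and 0.546% of all genes. The mitotic kinase Plk1 rose by 0.58 ± 0.08 (SE; adjusted p = 0.00418), while Top2a, the topoisomerase that untangles sister DNA, differed by 0.36 (adjusted p = 0.0731) and the proliferation marker Mki67 by 0.19 (adjusted p = 0.339). Exposed array 1, inside the naive range for replication, stood at 8.64 for the mitosis genes, where the highest naive array stood at 8.63. The CHR letters were present for 72.7% of the 33 mitosis genes with a window, and the E2F letters for 3.03%. The difference between the lists was not tested. The count of 17 was 7 without exposed array 2 (0.307% of all genes higher) and 29 without exposed array 1 (0.996%). It was 8 without naive array 1 (0.451%), 9 without naive array 2 (0.5%) and 9 without naive array 5 (0.415%). Without naive array 3, naive array 6, exposed array 3 or exposed array 4 it was 11, against 0.46%, 0.442%, 0.582% and 0.672%.

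**Figure D5:**
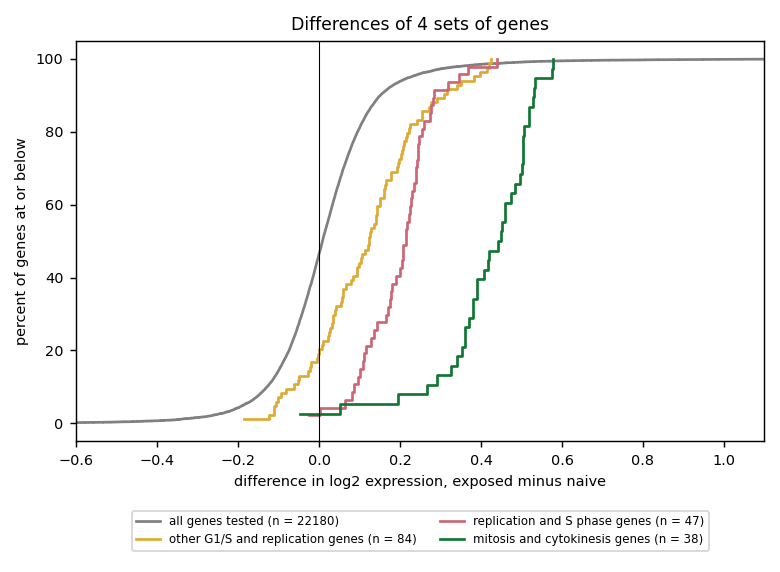
Percent of genes at or below each difference in log2 expression, exposed minus naive, for all 22180 genes tested, 84 other genes of G1/S and replication, the 47 replication and S phase genes and 38 mitosis and cytokinesis genes; the horizontal axis is drawn from -0.6 to 1.1. The curves reach their middle at 0.01, 0.12, 0.21 and 0.45.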

How the data were processed

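Gene expression was measured on 11 arrays of sorted splenic dendritic cells, 6 naive and 5 exposed. The deposited values are log2 expression per probeset, made by the authors with RMA per the submitters' processing notes, a method that corrects background, normalises between arrays and summarises probes; the version and genome build are not given in the sources used here. Of 41801 probesets 7329 were blank on every array. The given probe table named 1 gene for 23521 of the other 34472, several for 1814 and none for 9137. Array numbers follow the titles; the last exposed array is 6 there and 5 in another label.

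Differences were computed with limma 3.58.1 in R 4.3.3 (lmFit, eBayes with trend) over 22180 genes, with no filter on dim genes, and Benjamini-Hochberg adjustment over all of them. The threshold was an adjusted p under 0.05. The fit was tested on simulated data with independent noise, no number sets and planted changes larger than the differences of the replication genes. That test therefore does not bear on differences of their size. For arrays, their number limits the precision.

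The genes, lists and tests were chosen with earlier results of these data known. The rule gave values by array for each listed gene past the threshold (at most 16 by p) and, in roles without one, for the gene with the largest absolute difference. It also named other G1/S and replication genes past the threshold (at most 12), Ccnd1 to Ccnd3, Cdk2, Cdk4, Cdk6, Cdkn1a, Cdkn1b, Cdkn2c, Mki67, Top2a and Plk1. Promoters were those of up to 4 passing genes and of the 2 with the smallest absolute difference. Values by array of Pcna, Orc6, Cdc45, Uhrf1, Gins3 and Pola1 were added after they were seen. The comparison of number sets was also added then. Settings varied were the variance trend, robust fitting, array weights, rescaling (median, quantile, 75th percentile), removal of dim genes, averaging of probesets, number blocks, single number sets and leaving out each array.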

Additional observations from a re-analysis of the deposited data

Results flagged for a closer look

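Within groups of 6 or 5 arrays, 128 groups of values were checked for an array that stands far from the rest, and 9 were found, where chance gives about 1 in 20. Naive array 2 was the lowest naive array for Rfc2 (8.48, next 8.71), Rfc5 (8.02, next 8.22), Rpa2 (7.85, next 8.05) and Top2a (9.85, next 10.04), and the highest for the cell cycle inhibitor Cdkn1a (10.43, next 9.92). Naive array 4 was the highest naive array for Rrm2 (9.20, next 9.04), and naive array 5 for Ticrr (7.83, next 7.71). Array 1 was the lowest for Cdk2 in both groups, at 9.37 in naive cells (next 9.61) and at 9.50 in exposed cells (next 9.74).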

How the results depend on the processing

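The count of 4 replication genes past the threshold was 0 in each number set alone, where fewer arrays enter, 2 when a gene's probesets were averaged, which takes in dimmer probesets of Rrm2 and Rpa3, and 2 after median centring. With the title's number as a replicate block, which leaves naive array 5 without weight, it was 1 (Rpa3), where 341 of all genes passed. Leaving out 1 array gave between 0 and 6; all genes (316) then gave 104 to 395, other G1/S and replication genes 1 to 7 and mitosis genes 7 to 29. All genes numbered 11 within arrays 1 to 3, 5 within arrays 4 to 6 and 617 when number sets were blocked. For other G1/S and replication genes those settings gave 0, 0 and 8, and for mitosis genes 0, 0 and 30, with 26 once dim genes were removed, where 2.18% of all genes were higher in place of 0.879%. The 75th percentile shift split all calls into 166 higher and 215 lower in place of 195 and 121, and moved the median of all genes from 0.01 to -0.03. The replication genes' median ran from 0.15 to 0.27 with 1 array left out and from 0.18 to 0.22 elsewhere. Signs turned for 4 named genes with differences near 0. Gins3 gave -0.0343 after the 75th percentile shift, -0.0215 after quantile normalisation, -0.0230 with the replicate block, -0.0655 within arrays 1 to 3 and -0.0714 to 0.0680 with 1 array left out. Pola1 gave 0.16 within arrays 4 to 6 and -0.10 to 0.05 with 1 left out. Cdkn1a gave 0.0877 within arrays 1 to 3 and -0.12 to 0.11 with 1 left out. Cdkn1b gave 0.12 within arrays 1 to 3, 0.0067 with number sets blocked, 0.0345 with the replicate block and -0.0520 to 0.0345 with 1 left out. The cause was not tested. Same-numbered arrays correlated between 0.0880 and 0.231 once group means were removed, and 2 of 5 exposed arrays correlated best with their own number, so the numbers were not taken to pair samples.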
